A study of Caenorhabditis elegans with 24 samples.

Results

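The C-type lectin genes of the nematode Caenorhabditis elegans were followed across temperature, life stage and daf-16 genotype. The members were the probe sets whose only gene symbol in the platform table was clec followed by a number. That gave 247 genes, each with 1 probe set, among 25434 genes tested. All 247 were found by identifier in the RefSeq table, which lists 264 clec genes and classes 233 of the members as protein coding and 14 as pseudogenes. A further 7 clec probe sets that carry several symbols were left out.

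RNA of whole worms was hybridised to 24 Affymetrix gene arrays that fall into 8 groups of 3, and each array holds a separate preparation. The groups were daf-16(mgDF47) mutants and wild-type worms, as adults and as late L4 larvae (the last larval stage), each at 25 °C and at 15 °C. Adults were held at the temperature for 3 days from the late L4 stage and about 120 were pooled per preparation, whereas larvae had been at it since they were embryos, with about 300 in a pool. All worms lived on standard agar plates, and the mutant allele is carried by the whole animal rather than by 1 tissue. Adults were thus matched by days and not by how far adult life had advanced, so temperature and the advance of adult life cannot be told apart in them. In pooled whole worms, fewer cells of a type and less RNA per cell cannot be told apart either.

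C-type lectins are proteins built around a fold that in many family members binds sugars in a calcium-dependent way. The worm genome holds a very large family of them, many secreted and many made in the intestine, and a number of them are known for changing when worms meet harmful bacteria. The gene daf-16 codes for the worm's FOXO factor, which insulin-like signalling holds out of the nucleus and which acts in lifespan, stress resistance and a part of innate immunity.

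Levels are deposited log2 RMA values, so a difference of 1 is a 2-fold difference, and each probe set was compared only with itself. Array medians over genes lay between 3.57 and 3.72 in adults and between 3.05 and 3.12 in larvae, and adults and larvae were not set against each other in level because their arrays look to have been normalized apart. Arrays of 1 group correlated at 0.977 to 0.994 over the members. The gene daf-16 itself was lower in the mutant at both stages and temperatures, by 2.01 to 2.48 in size, with adjusted p of at most 1.2e-07 by limma. A difference is called where limma's adjusted p, taken over all 25434 genes, is under 0.05. Temperature differences are 25 °C minus 15 °C, genotype differences are mutant minus wild type, and errors of differences are the SE of the fit over 3 arrays a group.

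Adults changed their C-type lectins with temperature in both directions and in both genotypes. In daf-16 adults 39 members were higher at 25 °C and 29 lower, which is 27.5% of the family, against 24.6% of all genes called in either direction (13.4% higher and 11.2% lower). In wild-type adults 44 members were higher and 30 lower, 30% of the family against 30.1% of all genes (15.1% higher and 15.0% lower), but centring the arrays on their medians gave 42 higher and 55 lower. Without centring, the share of the family called was thus near the background in each genotype. With centred arrays the median difference of all genes was -0.19 in wild-type adults, and the share of all genes called was not compared. Changes of at least 2-fold were made by 17 members upward and 10 downward in the mutant, 27 of 247, against 5.58% of all genes. In the wild type 22 rose and 11 fell by at least 2-fold, 33 of 247, against 7.06% of all genes. The median member moved by -0.12 in mutant adults, where the median of all genes was -0.10, and by -0.10 in wild-type adults, where the median of all genes was also -0.10.

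The tallest rises were those of clec-71 and clec-174, which lie side by side on chromosome IV. On the arrays of preparations 1 to 3, clec-71 stood at 8.27, 8.01 and 7.62 in daf-16 adults at 25 °C, against 3.29, 4.33 and 4.21 at 15 °C. In wild-type adults clec-71 stood at 6.35, 7.60 and 7.08 at 25 °C, against 3.55, 4.38 and 4.56 at 15 °C. Every warm array was above every cool array in each genotype, and the differences were 4.02 ± 0.37 in the mutant (16.3-fold, adjusted p = 4.8e-08) and 2.85 ± 0.37 in the wild type (7.21-fold, adjusted p = 3.5e-06). Whether the mutant's rise was the larger could not be shown, the difference between them being 1.18 ± 0.52 with adjusted p = 0.68. Its neighbour clec-174 stood at 6.88, 7.20 and 6.87 in daf-16 adults at 25 °C, against 3.22, 2.72 and 3.03 at 15 °C. In wild-type adults clec-174 stood at 6.81, 7.27 and 6.72 at 25 °C, against 2.46, 4.24 and 3.15 at 15 °C. The warm groups were again apart from the cool groups, by 3.99 ± 0.36 in the mutant (adjusted p = 4.3e-08) and 3.65 ± 0.36 in the wild type (adjusted p = 9.7e-08), and 1 cool wild-type array was well above the other two.

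**Figure D1:**
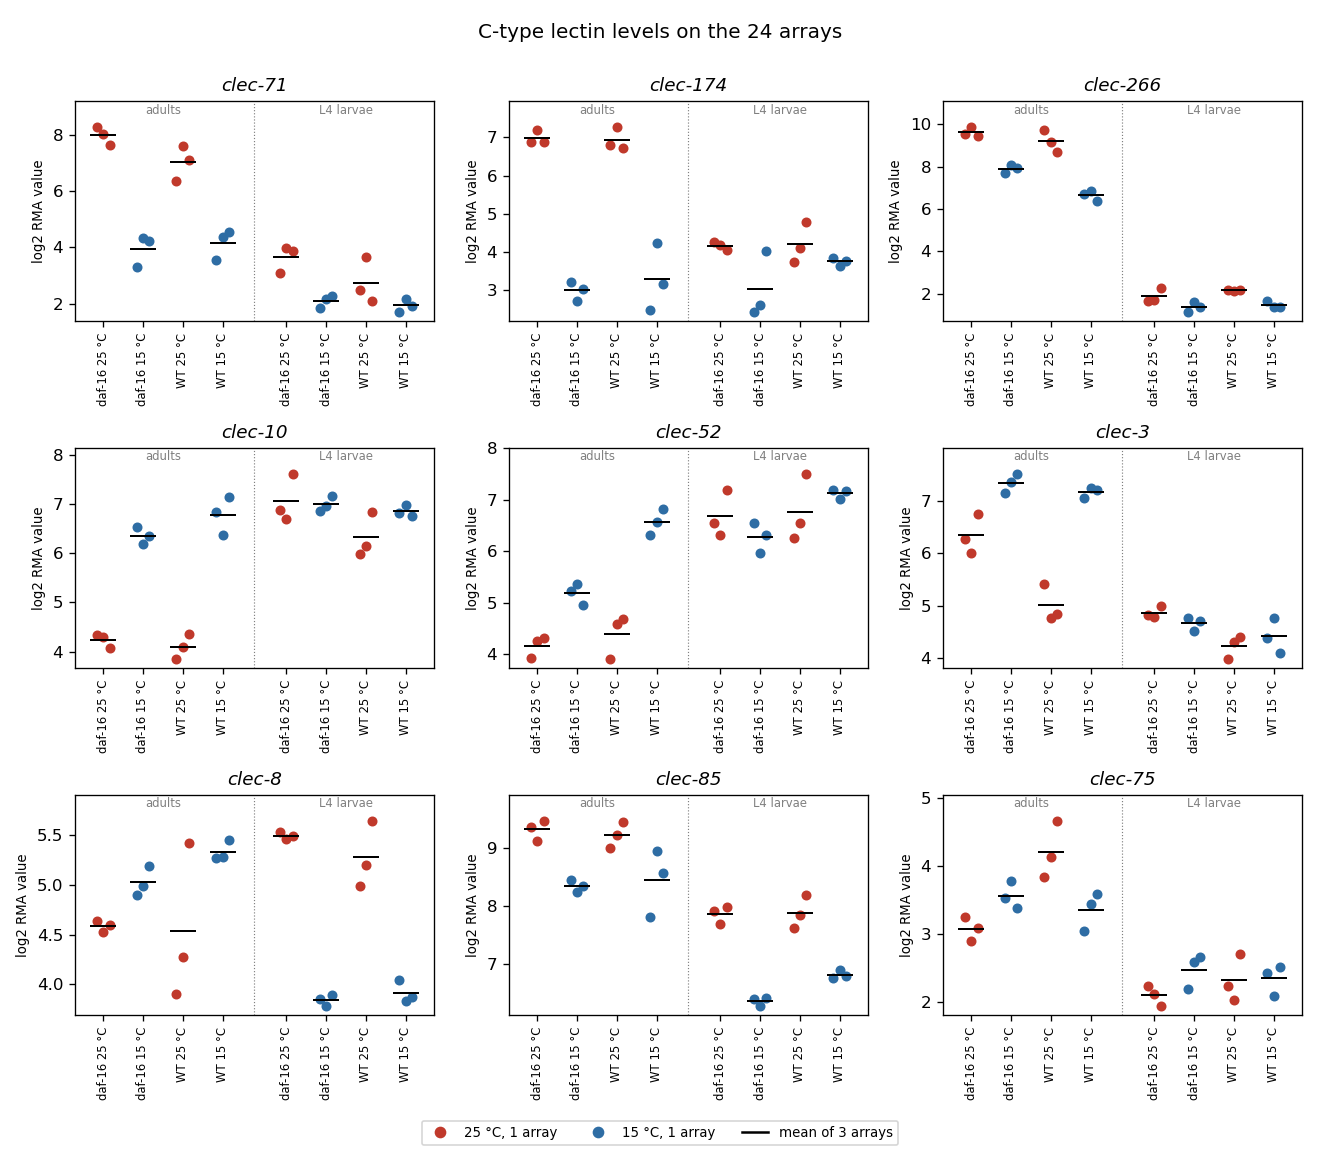
Log2 RMA values of 9 C-type lectins on each of the 24 arrays, with points for arrays, bars for the means of 3 arrays, and groups running from daf-16 adults at 25 °C to wild-type L4 larvae at 15 °C. clec-71, clec-174 and clec-266 are higher at 25 °C in adults of both genotypes, clec-10, clec-52 and clec-3 are lower, clec-8 is higher at 25 °C in larvae and has lower means at 25 °C in adults, clec-85 is higher at both stages, and clec-75 is higher at 25 °C in wild-type adults alone among the 4 pairs of groups.

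In wild-type adults the next largest rise was that of clec-266 on chromosome X. In mutant adults the estimates for clec-160 and clec-78 were larger and that for clec-264 was about equal. The order of these genes was not tested. clec-266 stood at 9.51, 9.86 and 9.45 in daf-16 adults at 25 °C, against 7.69, 8.08 and 7.93 at 15 °C, a rise of 1.71 ± 0.21 (adjusted p = 2.6e-06). In wild-type adults clec-266 stood at 9.74, 9.15 and 8.71 at 25 °C, against 6.72, 6.83 and 6.36 at 15 °C, a rise of 2.56 ± 0.21 (adjusted p = 7.1e-09). The cool wild-type arrays were the lowest of the 12 adult arrays. The other large rises were called in both genotypes. clec-264 rose by 1.72 ± 0.15 in the mutant and 2.11 ± 0.15 in the wild type, with means of 6.40 and 4.68 at 25 °C and 15 °C in the mutant and 6.55 and 4.45 in the wild type. clec-78 rose by 1.90 ± 0.23 in the mutant and 2.11 ± 0.23 in the wild type, clec-145 by 1.70 ± 0.19 and 1.75 ± 0.19, and clec-160 by 2.02 ± 0.24 and 1.30 ± 0.24 (limma adjusted p of at most 2.2e-06 in the mutant and 0.00024 in the wild type for these 4 genes). For none of these rises were the warm and cool groups of 3 arrays seen to overlap.

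The deepest fall in adults was that of clec-10. It stood at 4.34, 4.29 and 4.07 in daf-16 adults at 25 °C, against 6.53, 6.18 and 6.36 at 15 °C, and at 3.85, 4.08 and 4.35 in wild-type adults at 25 °C, against 6.84, 6.36 and 7.14 at 15 °C. The fall was -2.13 ± 0.23 in the mutant (4.37-fold, adjusted p = 4e-07) and -2.68 ± 0.23 in the wild type (6.43-fold, adjusted p = 1e-08), with no overlap of arrays in either. clec-53 fell by 1.47 in the mutant (SE 0.25, adjusted p = 0.00014) and by 2.22 in the wild type (SE 0.25, adjusted p = 6e-07). Preparation 3 was the highest warm array in each genotype, at 5.42 in the mutant and 5.28 in the wild type, and was still below every cool array. clec-51 and clec-52, which have 1 other gene between them on chromosome IV, fell together, by 1.16 ± 0.24 and 1.03 ± 0.27 in the mutant and by 1.51 ± 0.24 and 2.18 ± 0.27 in the wild type.

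Another large fall was that of clec-3. It stood at 6.27, 6.0 and 6.74 in daf-16 adults at 25 °C, against 7.14, 7.35 and 7.51 at 15 °C, a fall of 0.99 ± 0.19 (adjusted p = 0.00047). In wild-type adults clec-3 stood at 5.41, 4.76 and 4.85 at 25 °C, against 7.05, 7.24 and 7.20 at 15 °C, a fall of 2.15 ± 0.19 (adjusted p = 1.9e-08). The cool arrays of the genotypes were close and the warm mutant arrays were all above the warm wild-type arrays, but the difference of 1.16 ± 0.27 between the responses was not called (adjusted p = 0.079). clec-4, a gene known for its induction by Pseudomonas aeruginosa, fell by 1.01 ± 0.21 in the mutant and 1.76 ± 0.21 in the wild type, and the difference of 0.75 ± 0.30 between them was not called (adjusted p = 0.58). In the mutant the list of large falls also held clec-70 (-1.65 ± 0.43, adjusted p = 0.0071), clec-238 (-1.56 ± 0.27, adjusted p = 0.00018), clec-210 (-1.52 ± 0.35, adjusted p = 0.0025) and clec-190 (-1.2 ± 0.18, adjusted p = 3.4e-05). In wild-type adults the calls of clec-190 (-1.13) and clec-210 (-1.47) were in the same direction, the arrays of clec-210 overlapping there, and clec-238 was at -0.45 with no call.

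The adult responses of the genotypes ran largely over the same members. In both genotypes 33 members rose and 16 fell, and 0 were called in opposite directions. These are 49 of 247 members, against 18.6% of all genes called in both genotypes in 1 direction. The 49 are 72.1% of the members called in the mutant and 66.2% of those called in the wild type. Over all genes 4722 were so called, of 6258 called in the mutant and 7667 called in the wild type. Over the 247 members the differences correlated at r = 0.87 (rho = 0.70), and over all genes at r = 0.86. These are descriptions, since the members share arrays and normalization. Only 1 member was called for a difference between the adult responses, against 0.267% of all genes. That member, clec-75, stood at 3.26, 2.89 and 3.09 in daf-16 adults at 25 °C, against 3.53, 3.78 and 3.38 at 15 °C, and at 3.84, 4.13 and 4.67 in wild-type adults at 25 °C, against 3.05, 3.44 and 3.58 at 15 °C. Its warm arrays lay below the cool ones in the mutant (-0.48 ± 0.21, adjusted p = 0.091) and above them in the wild type (0.85 ± 0.21, adjusted p = 0.0026). The difference of -1.34 ± 0.29 was at the edge of the threshold, with adjusted p = 0.049981, and 14 of 19 alternatives ended the call, leaving out any 1 of 11 of the 12 adult arrays among them, with adjusted p up to 0.15. At these levels, near the array medians, the gene was also dim. The next smallest adjusted p were those of clec-265 (1.15 ± 0.25, adjusted p = 0.056) and clec-3, given above, which were not called.

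**Figure D2:**
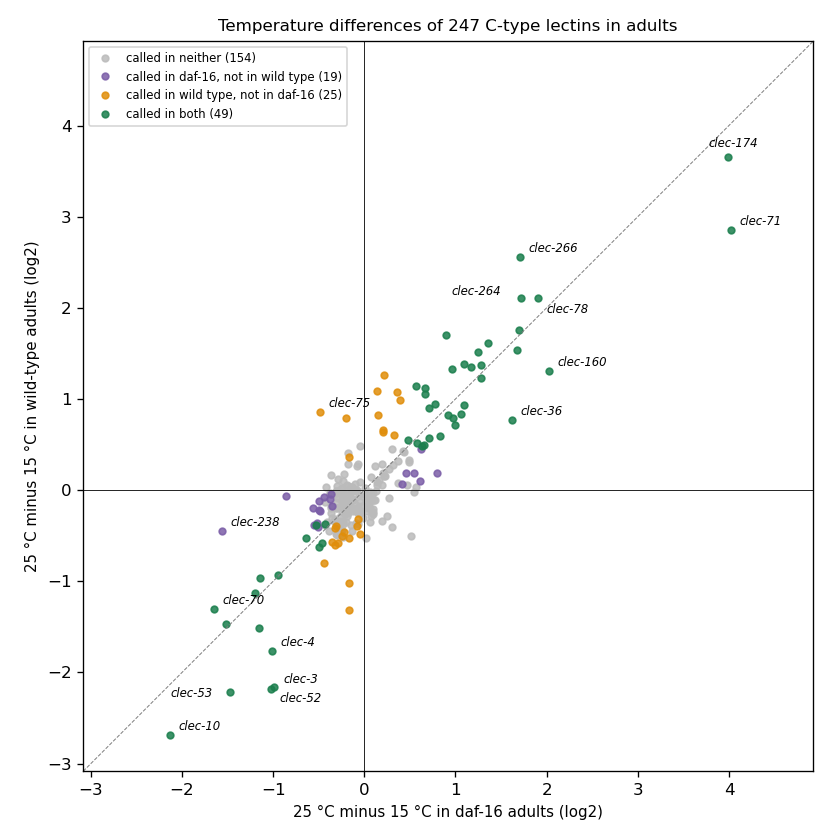
Temperature difference (25 °C minus 15 °C, log2) of each of the 247 C-type lectins in daf-16 adults (x axis) and in wild-type adults (y axis), coloured by where it was called, with the dashed line marking equal differences. The 49 members called in both lie in the upper right or lower left, with clec-71 and clec-174 farthest upward on both axes and clec-10 farthest downward, and clec-75 lies to the upper left.

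In L4 larvae fewer members moved, and the movement was mostly upward in the mutant. In daf-16 larvae 28 members rose and 3 fell, 12.6% of the family against 4.60% of all genes (2.72% higher and 1.88% lower). In wild-type larvae 12 rose and 8 fell, 8.10% of the family against 4.28% of all genes (2.25% higher and 2.03% lower). The wild-type count rested on single arrays, being 11 without preparation 3 at 25 °C, 11 without preparation 1 at 15 °C and 13 without preparation 3 at 15 °C. At least 2-fold changes were made by 10 members upward and 1 downward in the mutant, against 1.11% of all genes, and by 3 upward and 2 downward in the wild type, against 1.05% of all genes. The median difference of the members was -0.01 in mutant larvae and -0.02 in wild-type larvae, with -0.02 and -0.03 over all genes. Between the genotypes 9 members rose and 2 fell in both, of 247 members, against 2.13% of all genes called in both in 1 direction. The shared members are 35.5% of the mutant calls and 55% of the wild-type calls. Over all genes 543 were so called, of 1170 called in the mutant and 1088 called in the wild type. No member was called for a difference between the larval responses by limma, and neither was any other gene, while 15 members had an unadjusted p under 0.05, against 1050 of the 25434 genes.

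The largest larval rise in each genotype was that of clec-8. It stood at 5.54, 5.47 and 5.49 in daf-16 larvae at 25 °C, against 3.86, 3.79 and 3.89 at 15 °C, a rise of 1.65 ± 0.23 (3.14-fold, adjusted p = 0.0001). In wild-type larvae clec-8 stood at 4.99, 5.20 and 5.65 at 25 °C, against 4.04, 3.83 and 3.87 at 15 °C, a rise of 1.36 ± 0.23 (2.57-fold, adjusted p = 0.00097). Warm and cool larvae were thus well apart at this gene. clec-85, which is known as a target of the p38 mitogen-activated protein kinase pathway of immunity, stood at 7.92, 7.70 and 7.99 in daf-16 larvae at 25 °C, against 6.38, 6.27 and 6.41 at 15 °C (1.51 ± 0.20, adjusted p = 4.5e-05). In wild-type larvae clec-85 stood at 7.62, 7.85 and 8.19 at 25 °C, against 6.75, 6.90 and 6.79 at 15 °C (1.07 ± 0.20, adjusted p = 0.0022). clec-65 followed, with a rise of 1.40 ± 0.18 in the mutant (adjusted p = 4.4e-05) and 0.94 ± 0.18 in the wild type (adjusted p = 0.0033).

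Some larval rises were called in 1 genotype. In the mutant clec-71 rose by 1.54 ± 0.37 (adjusted p = 0.016), clec-4 by 1.36 ± 0.21 (adjusted p = 0.00036) and clec-86 by 1.23 ± 0.20 (adjusted p = 0.00047), where the wild-type differences were 0.80, 0.38 and 0.64 with no call. The clec-71 call was lost without preparation 2 or 3 of warm mutant larvae or preparation 1 of cool ones, with adjusted p up to 0.086. In the wild type clec-61 rose by 1.08 ± 0.25 (adjusted p = 0.014) and clec-82 by 0.98 ± 0.17 (adjusted p = 0.0014), where the mutant differences were 0.22 and 0.59. The clec-61 call was lost without warm preparation 3 or cool preparation 2, with adjusted p up to 0.075. clec-5 rose by 1.05 ± 0.24 in mutant larvae and 0.94 ± 0.24 in wild-type larvae. Its call was lost in the mutant without warm preparation 3 or cool preparation 2 (adjusted p up to 0.090), and in the wild type without warm preparation 3, cool preparation 1 or cool preparation 3 (adjusted p up to 0.16).

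Among the larval falls, clec-247 had the largest in the mutant. It stood at 2.90, 3.46 and 3.23 in daf-16 larvae at 25 °C, against 4.66, 5.06 and 4.78 at 15 °C, a fall of 1.64 ± 0.19 (adjusted p = 1.3e-05). In wild-type larvae clec-247 stood at 3.53, 3.44 and 3.20 at 25 °C, against 3.92, 4.49 and 5.05 at 15 °C, a fall of 1.09 ± 0.19 (adjusted p = 0.0015). The warm arrays lay below the cool ones throughout, and the warm levels were close to the array medians of larvae. clec-242 fell by 0.76 ± 0.15 in the mutant and 0.96 ± 0.15 in the wild type, again with dim warm arrays. In the mutant clec-147 fell by 0.93 ± 0.23 (adjusted p = 0.022), a call that was lost without preparation 1 or 3 of either temperature (adjusted p up to 0.13). In the wild type clec-70 (-1.64 ± 0.43), clec-51 (-0.92 ± 0.24), clec-143 (-0.83 ± 0.21) and clec-97 (-0.81 ± 0.20) fell, with adjusted p of 0.017 to 0.031. The highest larval group means of clec-70, clec-97 and clec-143 were 3.04, 3.10 and 3.22, close to the lowest larval array median of 3.05. These genes were thus dim in larvae. The calls of clec-70 and clec-51 were lost without any 1 of the 6 wild-type larval arrays, and those of clec-143 and clec-97 without any 1 of 4 of them, with adjusted p up to 0.12.

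**Figure D3:**
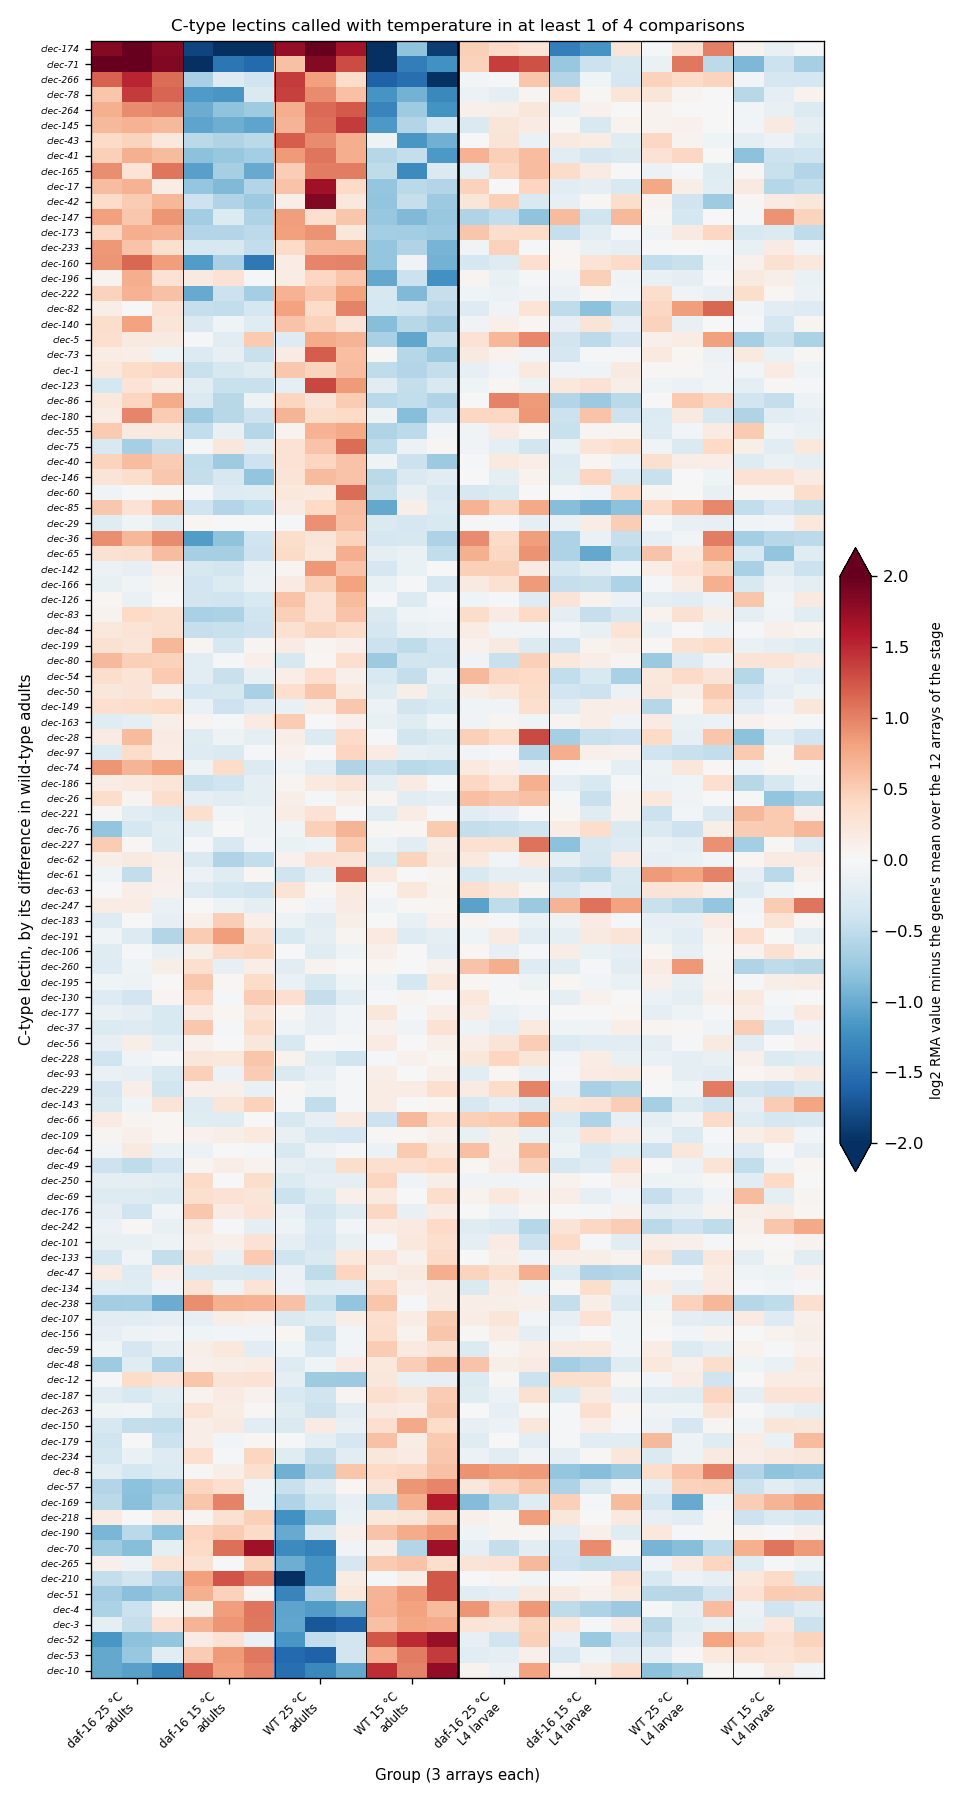
Levels on the 24 arrays of the 107 C-type lectins called with temperature in at least 1 of 4 comparisons, as the log2 RMA value minus the gene's mean over the 12 arrays of its stage, with 3 arrays a group and genes sorted by their difference in wild-type adults. The top and bottom rows show warm and cool adults of both genotypes in opposite colours, and most of the 107 rows are pale in larvae.

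Across the 4 temperature comparisons 107 members were called at least once, against 39.1% of all genes, and 140 were called in none. The 6 members called in all 4, each of them upward, were clec-36, clec-41, clec-50, clec-54, clec-65 and clec-85. Of these, clec-36, clec-50 and clec-54 were singled out after their values were seen. The share of all genes called in all 4 was not taken, so this count has no background beside it. clec-41 was apart by temperature on every array. It stood at 8.02, 8.25 and 8.17 in daf-16 adults at 25 °C, against 6.73, 6.78 and 6.86 at 15 °C, and at 8.39, 8.60 and 8.27 in wild-type adults at 25 °C, against 6.97, 7.06 and 6.39 at 15 °C. In larvae its means were 4.73 and 3.86 at 25 °C and 15 °C in the mutant and 4.38 and 3.59 in the wild type. The rises were 1.36 ± 0.16 and 1.61 ± 0.16 in mutant and wild-type adults, and 0.88 ± 0.16 and 0.79 ± 0.16 in mutant and wild-type larvae, with no overlap of warm and cool arrays in any of the 4 pairs. clec-36 rose by 1.62 and 0.77 in mutant and wild-type adults and by 1.13 and 0.85 in mutant and wild-type larvae, clec-54 by 0.66, 0.49, 0.97 and 0.59, and clec-50 by 0.63, 0.49, 0.54 and 0.51 in the same order. Most of the wild-type calls of these 3 genes were close to the threshold. Leaving out 1 array ended the call of clec-36 in wild-type adults without cool preparation 3 and in wild-type larvae without warm preparation 3 or any cool preparation (adjusted p up to 0.23). The calls of clec-50 were lost in wild-type adults, wild-type larvae and mutant larvae under 3, 8 and 5 alternatives (adjusted p up to 0.20), and that of clec-54 in wild-type larvae without warm preparation 2 or cool preparation 1 (adjusted p up to 0.077).

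The stages differed in their response for many members. In daf-16 worms 19 members had a higher (adult minus larval) difference and 15 a lower one. These 34 are 13.8% of the family, against 10% of all genes (6.82% higher and 3.21% lower). Centring the arrays gave 16 higher and 19 lower, and the share of all genes called with centred arrays was not compared. In the wild type 33 were higher and 13 lower, 46 in all or 18.6% of the family, against 13.8% of all genes (8.66% higher and 5.10% lower). Calls in opposite directions at the stages were made for 4 members in the mutant, namely clec-4, clec-48, clec-57 and clec-147, and for 1 in the wild type, clec-8. All genes gave 0.346% in the mutant and 0.334% in the wild type.

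clec-4 showed the turn most plainly. It stood at 5.27, 5.47 and 5.96 in daf-16 adults at 25 °C, against 6.03, 6.74 and 6.97 at 15 °C, and at 7.48, 7.06 and 7.45 in daf-16 larvae at 25 °C, against 6.08, 5.98 and 5.86 at 15 °C. Warm mutant adults were thus below cool ones and warm mutant larvae above cool ones, with no overlap, and the adult difference minus the larval one was -2.37 ± 0.30 (adjusted p = 2.3e-05). In wild-type worms the same contrast was -2.14 ± 0.30 (adjusted p = 3.8e-05), from a fall of 1.76 in adults and a difference of 0.38 without a call in larvae. clec-147 turned the other way, rising by 1.28 ± 0.23 in mutant adults and falling by 0.93 ± 0.23 in mutant larvae, a contrast of 2.21 ± 0.33 (adjusted p = 0.00011). In the wild type its contrast was 1.92 ± 0.33 (adjusted p = 0.00032), from a rise of 1.37 in adults and -0.55 without a call in larvae. clec-57 and clec-48 were higher at 25 °C in mutant larvae, by 0.71 ± 0.20 and 0.79 ± 0.16, and lower in mutant adults, by 0.95 ± 0.20 and 0.64 ± 0.16. The larval call of clec-57 was lost without any warm mutant preparation or cool preparation 1 or 2 (adjusted p up to 0.21).

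The neighbour of clec-4, clec-8, also differed between the stages. In mutant worms it was at -0.44 ± 0.23 in adults, not called, and rose by 1.65 in larvae, a contrast of -2.09 ± 0.33 (adjusted p = 0.00018). In wild-type adults it was lower at 25 °C by 0.80 ± 0.23 (adjusted p = 0.011), where the warm arrays at 3.91, 4.28 and 5.42 overlapped with the cool arrays at 5.27, 5.28 and 5.46. That adult call was lost without warm preparation 1 or 2 (adjusted p up to 0.10), so the wild-type call in opposite directions rests on those arrays. The contrast between the stages was -2.17 ± 0.33 (adjusted p = 8.7e-05).

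The largest contrasts upward were those of the genes that rose in adults. For clec-174 the adult response was above the larval one by 2.85 ± 0.51 in the mutant and 3.18 ± 0.51 in the wild type, and for clec-71 by 2.48 ± 0.52 and 2.05 ± 0.52. In the mutant clec-160 (2.35 ± 0.34) and clec-78 (2.18 ± 0.33) followed, and in the wild type clec-264 (1.92 ± 0.21) and clec-266 (1.88 ± 0.30). Downward, clec-10 stood at -2.2 ± 0.32 in the mutant and -2.15 ± 0.32 in the wild type. Its larval levels had means of 7.06 and 6.99 at 25 °C and 15 °C in the mutant and of 6.32 and 6.86 in the wild type, so the fall of adults had no called counterpart in larvae. clec-238 (-1.89 ± 0.39) and clec-57 (-1.66 ± 0.28) completed the list in the mutant, and clec-3 (-1.97 ± 0.27) and clec-53 (-1.93 ± 0.36) in the wild type. Each contrast in this paragraph had adjusted p of at most 0.0097 by limma.

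**Figure D4:**
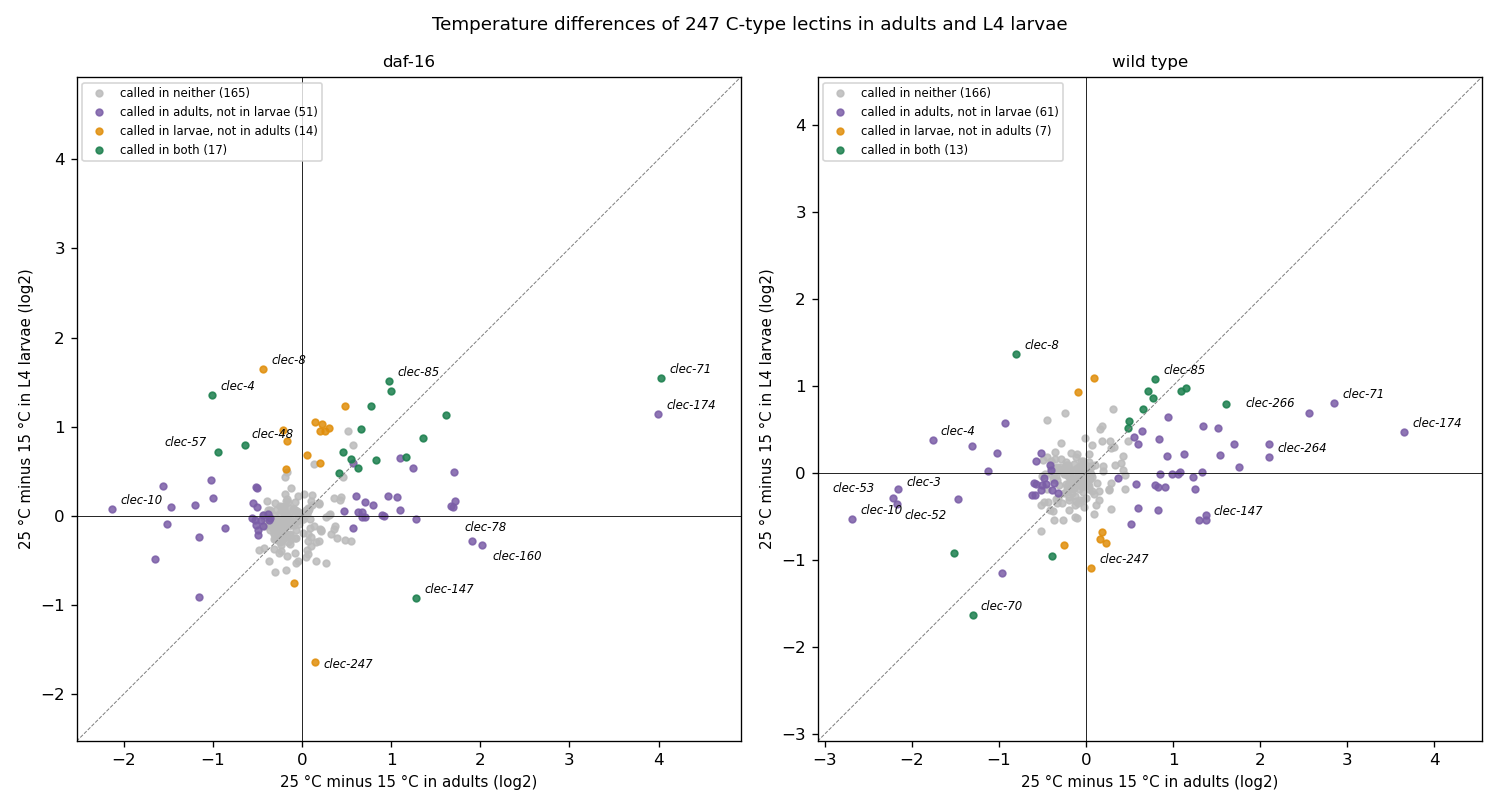
Temperature difference (25 °C minus 15 °C, log2) of each of the 247 C-type lectins in adults (x axis) and in L4 larvae (y axis), in daf-16 worms on the left and wild-type worms on the right, coloured by where it was called. In daf-16 worms 17 members were called at both stages, 13 upward in both and 4 in opposite directions, and in wild-type worms 13 were, with clec-8 alone in opposite directions.

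The daf-16 genotype itself moved few members at either temperature. In adults at 15 °C 2 members were higher in the mutant and 2 lower, 1.62% of the family against 1.47% of all genes (0.959% higher and 0.511% lower). In adults at 25 °C 6 were higher and 4 lower, 4.05% of the family against 3.00% of all genes (1.36% higher and 1.64% lower). In larvae limma called 0 members at either temperature, against 0.0708% of all genes at 15 °C and 0.118% at 25 °C, while 17 and 26 members had an unadjusted p under 0.05, against 1999 and 1268 of the 25434 genes. With the preparation number as a block, 2 members were called lower in mutant larvae at 25 °C. The adult counts were small and moved with single arrays, to 2 at 15 °C without preparation 3 of either genotype, and at 25 °C to 6 without wild-type preparation 2, 5 without any 1 of the mutant preparations and 15 without wild-type preparation 1. Array weights gave 9 at 15 °C and 25 at 25 °C.

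At 15 °C the mutant had more of clec-266 and clec-196. clec-266 stood at 7.69, 8.08 and 7.93 in mutant adults, against 6.72, 6.83 and 6.36 in wild-type adults (1.26 ± 0.21, adjusted p = 0.002). clec-196 stood at 6.05, 6.17 and 5.85 in mutant adults, against 4.85, 5.45 and 4.67 in wild-type adults (1.03 ± 0.19, adjusted p = 0.0048). Neither gene's arrays overlapped between the genotypes. At 25 °C both genes were close, with differences of 0.41 for clec-266 and -0.01 for clec-196 that were not called. The rises with temperature in wild-type adults, of 2.56 for clec-266 and 1.26 for clec-196, share the cool wild-type arrays with these comparisons.

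Lower in the mutant at 15 °C were clec-52 and clec-63. clec-52 stood at 5.23, 5.37 and 4.95 in mutant adults, against 6.32, 6.56 and 6.83 in wild-type adults (-1.38 ± 0.27, adjusted p = 0.0072), with no overlap, and the call was lost without preparation 3 of either genotype (adjusted p up to 0.055). clec-63, bright at 10.47, 10.39 and 10.33 in the mutant and at 10.75, 10.94 and 10.80 in the wild type, differed by -0.43 ± 0.11 (adjusted p = 0.042). Its call was lost without any 1 of the 6 arrays and under 3 other alternatives (adjusted p up to 0.17).

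At 25 °C clec-3 and clec-74 were the clearest rises in the mutant. clec-3 stood at 6.27, 6.0 and 6.74 in mutant adults, against 5.41, 4.76 and 4.85 in wild-type adults (1.33 ± 0.19, adjusted p = 0.00021). clec-74 stood at 4.52, 4.31 and 4.45 in mutant adults, against 3.55, 3.41 and 3.04 in wild-type adults (1.10 ± 0.15, adjusted p = 0.00011). The mutant arrays were above every wild-type array at both genes. The wild-type arrays of clec-74 were dim, each below the lowest adult array median of 3.57. clec-265 followed at 0.92 ± 0.18 (adjusted p = 0.0043), with 6.56, 6.35 and 6.73 in the mutant, against 5.47, 5.28 and 6.13 in the wild type. clec-218 (0.81 ± 0.21), clec-12 (0.74 ± 0.17) and clec-204 (0.67 ± 0.17) were also higher, and clec-76 (-0.82 ± 0.19), clec-29 (-0.68 ± 0.17) and clec-126 (-0.53 ± 0.14) lower. These 6 calls, with adjusted p of 0.015 to 0.036, were each lost without any 1 of at least 3 of the 6 arrays (adjusted p up to 0.22). Of these genes clec-29 and clec-126 were dim, with highest adult group means of 3.16 and 3.61. clec-75 was lower by 1.13 ± 0.21 in the mutant (adjusted p = 0.0024), with its arrays as given above. For clec-3, clec-265 and clec-218 the wild-type fall with temperature, of 2.15, 1.31 and 1.02, shares the warm wild-type arrays with this comparison.

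A group of 13 members known from the worm literature to change in bacterial infection or to bear on it was read together: clec-4, clec-17, clec-39, clec-41, clec-49, clec-52, clec-60, clec-66, clec-67, clec-70, clec-71, clec-85 and clec-86. In daf-16 adults 5 of the 13 rose and 4 fell, and in wild-type adults 6 rose and 3 fell. In daf-16 larvae 6 rose and 0 fell, and in wild-type larvae 2 rose and 1 fell. Over all genes 13.4% rose and 11.2% fell in mutant adults, 15.1% and 15.0% in wild-type adults, 2.72% and 1.88% in mutant larvae, and 2.25% and 2.03% in wild-type larvae. The members were picked with earlier results known, so these counts are a description. The median difference was 0.25 in mutant adults, -0.23 in wild-type adults, 0.88 in mutant larvae and 0.34 in wild-type larvae, against -0.10, -0.10, -0.02 and -0.03 over all genes. Between the genotypes only clec-52 was called, at 15 °C in adults.

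Within this group clec-17, known for its induction by Microbacterium nematophilum, rose in adults by 1.24 ± 0.27 in the mutant (adjusted p = 0.0016) and 1.52 ± 0.27 in the wild type (adjusted p = 0.00016). clec-86 stood at 3.72, 3.93 and 4.25 in daf-16 adults at 25 °C, against 3.22, 2.95 and 3.40 at 15 °C, and at 3.93, 3.76 and 4.01 in wild-type adults at 25 °C, against 2.96, 3.01 and 2.90 at 15 °C. Its warm arrays were above its cool ones in each genotype, by 0.78 ± 0.20 in the mutant and 0.94 ± 0.20 in the wild type. clec-60, known for its part in the response to Staphylococcus aureus, rose in wild-type adults by 0.83 ± 0.19 (adjusted p = 0.0015) and was at 0.15 ± 0.19 in mutant adults, and the 2 responses were not called different. clec-70 was at -1.65 ± 0.43 in mutant adults and -1.3 ± 0.43 in wild-type adults, where its arrays overlapped and the call was lost without warm preparation 1 or 2 or cool preparation 3 (adjusted p up to 0.23). clec-66 rose in mutant larvae by 0.95 ± 0.20 (adjusted p = 0.0067), with 6.63, 6.67 and 6.94 at 25 °C, against 5.88, 5.53 and 5.99 at 15 °C. clec-39 and clec-49, which are needed for normal resistance to Serratia marcescens, had small differences. clec-39 was between -0.23 and 0.07 in the 4 comparisons, and clec-49 was called in mutant adults alone (-0.52 ± 0.17, adjusted p = 0.031), a call lost without any 1 of the 6 arrays (adjusted p up to 0.10). clec-67, another target of the p38 pathway, was not called, with 0.51 ± 0.30 in mutant adults and -0.5 ± 0.30 in wild-type adults, 0.95 ± 0.30 in mutant larvae (adjusted p = 0.078) and -0.04 ± 0.30 in wild-type larvae.

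Many members lie beside each other in the genome. Taking members with at most 2 other genes between them as neighbours, 14 runs of at least 4 neighbours held 88 of the 247 members. In daf-16 adults 17 of the 88 rose and 10 fell, in wild-type adults 18 rose and 6 fell, in daf-16 larvae 16 rose and 0 fell, and in wild-type larvae 6 rose and 4 fell. Of the other 159 members 22 rose and 19 fell in daf-16 adults, 26 rose and 24 fell in wild-type adults, 12 rose and 3 fell in daf-16 larvae, and 6 rose and 4 fell in wild-type larvae. No difference between members in runs and the others was tested, and the shares over all genes are those given for the infection-linked members. Of 115 pairs of neighbours, 8 rose together in mutant adults, 3 fell together and 3 were called in opposite directions, and in wild-type adults the counts were 7, 2 and 2. In mutant larvae 8 pairs rose together and 0 fell together or were opposed, and in wild-type larvae all 3 counts were 0. Pairs can share a member, so a single run can give several of them. The genes clec-82 to clec-85 did so in adults of both genotypes, and clec-63 to clec-66 in mutant larvae. No share over all pairs of neighbouring genes was taken.

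A run of 13 members from clec-67 to clec-79 on chromosome IV held the largest rises of the family beside genes that fell or did not move. clec-71 and clec-174 rose in adults of both genotypes, while clec-70, the gene next to clec-71, fell in both. In mutant adults clec-74 also rose, by 0.80 ± 0.15, and clec-69 fell, by 0.55, whereas in wild-type adults clec-73 (1.08) and clec-75 (0.85) rose. The members clec-69 and clec-73 were singled out after their values were seen, and the clec-69 call was lost without warm preparation 3 or cool preparation 1 (adjusted p up to 0.054). The remaining members of the run were not called in adults. An equally long run of 13 members, from clec-40 to clec-33 on chromosome V, had 3 rises and 1 fall in mutant adults, 2 rises and 0 falls in wild-type adults, 3 rises and 0 falls in mutant larvae and 1 rise and 0 falls in wild-type larvae.

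**Figure D5:**
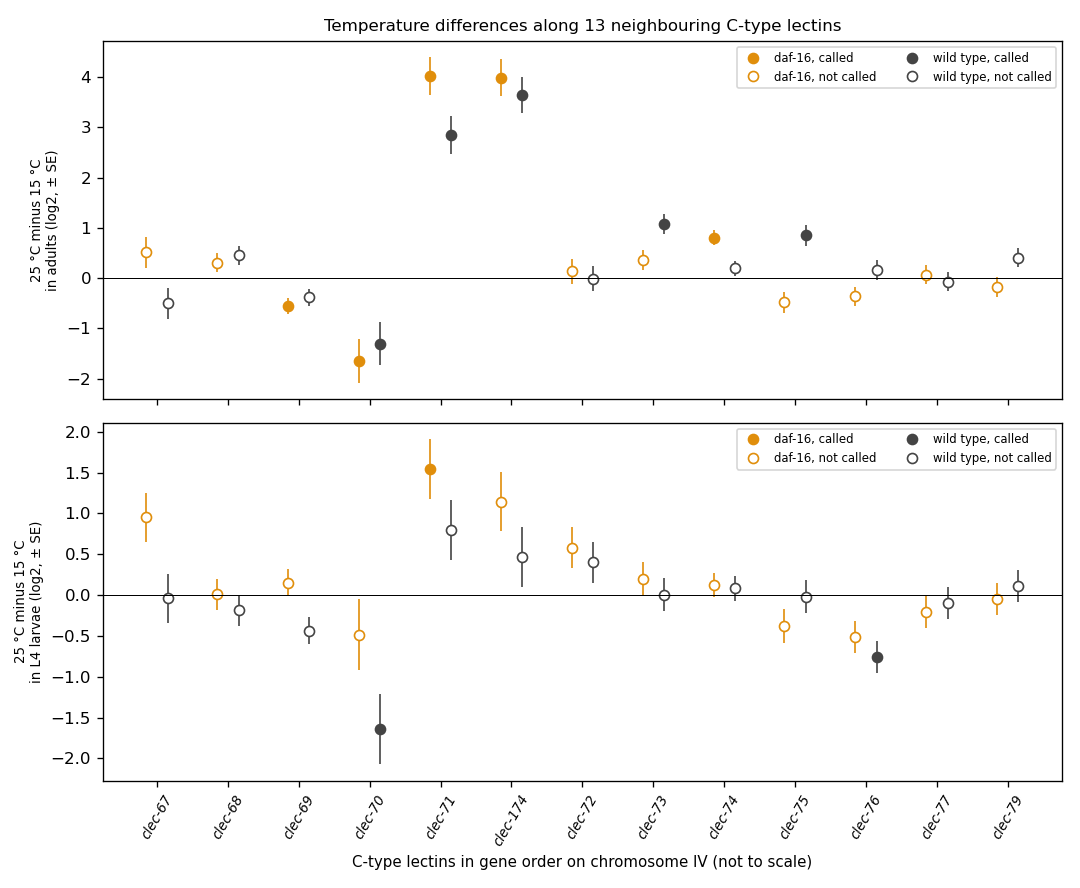
Temperature difference (25 °C minus 15 °C, log2, with SE) of the 13 neighbouring C-type lectins from clec-67 to clec-79 in their order on chromosome IV, in adults above and L4 larvae below, for daf-16 (orange) and wild type (grey), with filled points where called. clec-71 and clec-174 stand out upward in adults, clec-70 is below 0 in all 4 comparisons, and most other members lie near 0.

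In other runs several neighbours were called in 1 direction, and their members beyond those named above were singled out after their values were seen. Whether neighbours moved together was not tested. All 4 members of the run from clec-82 to clec-85 on chromosome IV rose in adults of both genotypes. In mutant adults the rises were 0.57 for clec-82, 0.83 for clec-83, 0.71 for clec-84 and 0.98 for clec-85, and in wild-type adults 1.14, 0.59, 0.57 and 0.79 in that order. clec-84 was bright and tight, at 9.93, 9.997 and 10.05 in daf-16 adults at 25 °C, against 9.27, 9.29 and 9.31 at 15 °C, and at 10.02, 10.17 and 10.09 in wild-type adults at 25 °C, against 9.38, 9.58 and 9.61 at 15 °C. In larvae clec-84 was at -0.01 in the mutant and -0.13 in the wild type, with no call. clec-82 in mutant adults lost its call without warm preparation 3 or cool preparation 1 or 2 (adjusted p up to 0.078).

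The run from clec-62 to clec-66 on chromosome II was called mainly in the mutant. In mutant larvae 4 of its 5 members rose, clec-63 by 0.48, clec-64 by 0.68, clec-65 by 1.40 and clec-66 by 0.95, and in mutant adults clec-62 (0.61), clec-63 (0.42) and clec-65 (1.0) rose. In the wild type clec-65 alone was called at each stage, by 0.72 in adults and 0.94 in larvae. No difference between the genotypes' responses was called for these 5 genes. In mutant larvae the calls of clec-63 and clec-64 were lost without preparation 1 of either temperature for clec-63 (adjusted p up to 0.060) and without warm preparation 1 or 3 or cool preparation 2 or 3 for clec-64 (adjusted p up to 0.12). In the run from clec-57 to clec-55 on chromosome V, 4 of 5 members rose in mutant larvae, led by clec-227 (1.03) and clec-54 (0.97), and in adults of each genotype 2 rose and 1 fell. The larval calls of clec-227, clec-56 and clec-57 were each lost without any 1 of at least 2 of the 6 mutant arrays (adjusted p up to 0.22). By contrast, in the run of 8 members from clec-127 to clec-134 on chromosome II, 0 rose in any of the 4 comparisons and 2 fell in mutant adults and 1 in wild-type adults.

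Many members were dim on these arrays. In adults 147 members (59.5%, against 44.7% of all genes) had group means below the lowest array median of 3.57 in all 4 adult groups, and in larvae 155 members (62.8%, against 47.6% of all genes) had group means below 3.05 in all 4 groups. For members this dim a missing call says little. The temperature calls also include 23 such dim members in adults and 3 in larvae, beside 70 and 37 brighter ones. The 14 pseudogenes gave 1 call in the 4 temperature comparisons, a fall in mutant adults. The 3 members on chromosome X, clec-86, clec-265 and clec-266, were each called in wild-type adults, 2 upward and 1 downward.

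Known regulators of worm immunity were read beside the family, 26 of 28 listed genes being measured. In mutant adults 10 rose with temperature and 0 fell, where 13.4% of all genes rose and 11.2% fell. In wild-type adults 12 rose and 3 fell, where 15.1% of all genes rose and 15.0% fell. The largest rise was that of cebp-1, a C/EBP-type bZIP factor, by 1.36 ± 0.26 in mutant adults and 1.38 ± 0.26 in wild-type adults. Its cool wild-type adult arrays were spread, at 5.77, 7.25 and 5.94. The adaptor at the head of the p38 pathway, tir-1, rose by 1.05 ± 0.18 in mutant adults and 1.14 ± 0.18 in wild-type adults. pqm-1, a zinc finger factor, rose by 1.13 ± 0.14 and 1.04 ± 0.14, and vhp-1, a phosphatase that turns the pathway down, by 0.97 ± 0.15 and 1.05 ± 0.15 (adjusted p of at most 0.00051 for these 4 genes). In larvae egl-5, a Hox gene, rose by 0.81 ± 0.14 in the mutant and 0.59 ± 0.14 in the wild type, and pqm-1 by 0.74 ± 0.14 in the mutant. Between the genotypes 0 of the 26 were called by limma at either stage or temperature.

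Markers of tissues were read beside the family too, as counts called with temperature. Over all genes 13.4% rose and 11.2% fell in mutant adults, and 15.1% and 15.0% in wild-type adults. In larvae the shares were 2.72% and 1.88% in the mutant and 2.25% and 2.03% in the wild type. Of 12 pan-neuronal genes 8 rose in mutant adults and 10 in wild-type adults, their summed log2 level being 82.80 to 85.91 at 25 °C, against 74.04 to 76.42 at 15 °C, in the mutant, and 84.30 to 85.01 at 25 °C, against 72.92 to 75.26 at 15 °C, in the wild type. Of 12 body wall muscle genes 4 rose in mutant adults and 10 in wild-type adults, with sums of 99.5 to 102 at 25 °C, against 93.6 to 98.2 at 15 °C, in the mutant, and 101 to 103 at 25 °C, against 93.4 to 94.3 at 15 °C, in the wild type. Of 10 intestinal genes 3 rose and 0 fell in mutant adults, and 1 rose and 2 fell in wild-type adults. The intestinal sum was 78.96 to 79.56 at 25 °C, against 77.7 to 78.5 at 15 °C, in mutant adults, and 77.4 to 81.9 at 25 °C, against 77.9 to 80.4 at 15 °C, in wild-type adults. In larvae 0 pan-neuronal and 0 muscle genes were called, and 2 intestinal genes rose in the mutant and 1 in the wild type. Of 10 sperm genes 3 rose and 1 fell in mutant adults, and 3 rose and 0 fell in wild-type adults, with sums of 42.4 to 44.7 at 25 °C, against 33.3 to 39.3 at 15 °C, in the mutant, and 39.98 to 53.3 at 25 °C, against 32.7 to 35.1 at 15 °C, in the wild type. In larvae 0 sperm genes were called. Of 12 hypodermis and seam genes 4 rose and 1 fell in mutant adults and 4 rose and 0 fell in wild-type adults, with sums of 72.8 to 74.4 at 25 °C, against 69.2 to 70.8 at 15 °C, in the mutant, and 73.1 to 74.1 at 25 °C, against 68.2 to 69.4 at 15 °C, in the wild type. In larvae 1 of them rose and 2 fell in the mutant, and 0 rose and 3 fell in the wild type. Of 12 oocyte and germ line genes 1 fell and 0 rose in adults of each genotype, with sums of 126.5 to 128.0 at 25 °C, against 128.76 to 128.85 at 15 °C, in the mutant, and 127.9 to 128.8 at 25 °C, against 130.3 to 130.8 at 15 °C, in the wild type. In larvae 3 of them fell in the mutant, with sums of 97.4 to 103.1 at 25 °C, against 105.2 to 107.1 at 15 °C. In wild-type larvae 2 fell, with sums of 100.2 to 106.3 at 25 °C, against 106.5 to 108.1 at 15 °C. The part of tissue proportions in the differences of the lectins was not tested.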

How the data were processed

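The values used are log2 RMA values per probe set, which the authors made with RMA per the submitters' processing notes and deposited in 1 table. RMA as a method corrects background, applies quantile normalization and summarises probes, and its version is not given in the sources used here. Array medians differ between the stages and 3 probe sets are blank in the adult arrays alone, so separate normalization of the stages is likely and their levels were not compared. Of 29317 probe sets, 25484 carry 1 gene symbol in the platform table. Those with blank values were dropped and only the probe set with the highest mean was kept for each gene, which left 25434 genes. Array values give no counts, so the number of arrays limits the precision. The median SE of a difference between 2 groups was 0.16.

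limma 3.58.1 in R 4.3.3 was fitted to all 24 arrays with 8 group means, giving 12 comparisons, each adjusted by Benjamini-Hochberg over all genes. The labels do not say whether preparations were separate cultures, so p-values measure the spread between these preparations, which may be technical. Named members are the up to 6 largest rises and falls per comparison (up to 5 for differences of differences) among called members, without overlap of arrays for pairs of groups, together with 13 infection-linked members and up to 4 called regulators. Further members, clec-48 among them, were named after their values were seen. The members and lists were chosen with earlier results of these data known. Gene order came from the RefSeq table (assembly WBcel235), used for names and neighbours. Same-numbered preparations deviated together (every correlation over 0.1) for temperature in wild-type adults (0.29, 0.26 and 0.34) and genotype in larvae at 25 °C (0.16, 0.15 and 0.45), and not for the other pairs of groups. Alternatives were centring of arrays, cyclic loess within each stage, array weights, leaving out the dimmest 25% of genes, the replicate block, all probe sets tested together, the arrays of the stage or groups compared alone, and each array left out in turn.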

Additional observations from a re-analysis of the deposited data

Results flagged for a closer look

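The temperature responses of the genotypes differed by limma for clec-75 in adults (-1.34, mutant minus wild type), the single member past the threshold there. Its limma adjusted p of 0.049981 was at the edge of the threshold, the gene was dim, and most alternatives ended the call, as given above.

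Differences between the temperature responses of the stages, adult minus larval, were past limma's threshold for the members with the largest contrasts. In daf-16 worms the adult response was the higher for clec-174 (2.85), clec-71 (2.48), clec-160 (2.35), clec-147 (2.21) and clec-78 (2.18), and the lower for clec-4 (-2.37), clec-10 (-2.2), clec-8 (-2.09), clec-238 (-1.89) and clec-57 (-1.66). In wild-type worms it was the higher for clec-174 (3.18), clec-71 (2.05), clec-264 (1.92), clec-147 (1.92) and clec-266 (1.88), and the lower for clec-8 (-2.17), clec-10 (-2.15), clec-4 (-2.14), clec-3 (-1.97) and clec-53 (-1.93). Adults and larvae also differ in how long they were at the temperature and in normalization, whose part was not tested.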

How the results depend on the processing

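Array weights raised the members called for genotype to 9 in adults at 15 °C (4 without weights) and 25 in adults at 25 °C (10), and gave 1 in larvae at 25 °C (0) and 6 for the difference between adult temperature responses (1). Fitting the stage alone gave 1 for genotype in larvae at 25 °C and 0 for the difference between adult responses, which was 2 with centred arrays and 0 with all probe sets. For temperature the fit by stage gave 22 members in daf-16 larvae (31 with all 24 arrays) and 17 in wild-type larvae (20). In adults it gave 66 in the mutant (68) and 78 in the wild type (74). With the groups compared alone, the responses of the stages differed for 41 members in daf-16 worms (34) and 38 in the wild type (46). With the replicate block (pairing by preparation number), temperature called 67 members in daf-16 adults, 80 in wild-type adults, 35 in daf-16 larvae and 24 in wild-type larvae, and genotype 2 in larvae at 25 °C. The block ended the call of clec-75 (adjusted p = 0.055) and called another member for the difference between adult responses. Leaving out 1 array gave 54 to 63 members for temperature in daf-16 adults, 56 to 73 in wild-type adults, 21 to 28 in daf-16 larvae and 11 to 20 in wild-type larvae. For genotype it gave 2 to 5 in adults at 15 °C, 5 to 15 in adults at 25 °C and 0 to 1 in larvae at 25 °C, and 0 to 4 for the difference between adult responses (4 without wild-type preparation 1 at 25 °C). With centred arrays the median of all genes was -0.16 in daf-16 adults and -0.19 in wild-type adults, and -0.01 in both with loess. The causes were not tested. Over the named C-type lectins 2705 values stayed called or stayed uncalled, 240 lost a call and 12 gained one. The calls of the named regulators were not put through the alternatives. Among values called in the main fit or in the alternative, 0 changed sign. Members near the array medians have little signal over background.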
